A study of Mus musculus with 6 samples.

Results

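Integrins and the focal adhesion adaptors that couple them to actin were followed in RNA sequencing of peritoneal endothelial cells (ECs) from 3 saline mice and 3 PD mice. The 37 genes were taken by symbol alone from the 22183 genes of the deposited table, and comprised 18 integrin alpha chains, 8 beta chains and 11 adaptors. All mice were wild type, and were injected intraperitoneally with saline (saline mice) or with peritoneal dialysis fluid (PD mice) for 6 weeks. The methods describe daily injection of glucose-based Dianeal PD fluid into male C57BL/6J mice. Each library came from a single mouse. According to the sample labels, CD31+ cells were taken from the peritoneum by magnetic sorting, whereas the supplementary methods describe fluorescence-activated sorting of CD31+ CD45- cells from the digested mesentery.

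Integrins are receptors made of an alpha and a beta chain that bind matrix proteins or counter-receptors on other cells. The beta2 and beta7 families and the alpha4 chain are best known from leukocytes, where they mediate arrest on inflamed endothelium, while most beta1, beta3, beta4 and beta5 integrins bind collagen, laminin, fibronectin or vitronectin. Talin and kindlin bind the beta chain tail and switch the receptor to its active form, and the ILK, parvin, paxillin, vinculin and focal adhesion kinase proteins assemble on it to link matrix to the cytoskeleton. ECs use this machinery to hold on to their basement membrane and to migrate during vessel growth.

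Gene-level reads numbered 21973426 to 26374292 per library. Of the 14005 genes that passed edgeR's filter on low counts, 31.1% were higher and 27.8% lower in PD mice by the quasi-likelihood test of edgeR (Benjamini-Hochberg adjusted p, threshold 0.05). In the same genes, 34.0% had all PD mice above all saline mice and 31.6% had all PD mice below. The endothelial markers were present, and 11 of 12 were higher in PD mice, with a sum of 1143 to 1160 CPM (read counts scaled to library size with TMM factors) in saline mice and 1783 to 1850 CPM in PD mice. The CD45 transcript Ptprc nonetheless averaged 2373 ± 127 CPM in saline mice against 1473 ± 63.6 CPM in PD mice (SD, n = 3 each). Pecam1, which encodes CD31, was below it in every library (469 ± 19.4 and 514 ± 7.85 CPM, respectively). Leukocyte transcripts were thus abundant in both groups. B cell markers summed to 6996 to 7284 CPM in saline mice against 3306 to 3367 CPM in PD mice, and macrophage markers to 2706 to 2848 CPM and 11145 to 12061 CPM, respectively. Markers of pancreatic acinar cells went from sums of 2.23 to 5.81 CPM to sums of 7094 to 7985 CPM, and 9 of 9 were higher. At such low saline sums, part of these markers passed the filter only through the PD mice, so that this count is partly set by the filter. In such sorted bulk samples, fewer cells of a type and less RNA per cell cannot be told apart. Saline mouse 2 stood somewhat apart from its group, with correlations of log2 CPM of 0.981 and 0.980 to the other saline mice, which correlated at 0.985 with each other. Several members were low in this mouse.

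In PD mice, matrix-binding integrins and adaptors were higher almost throughout, whereas of the leukocyte integrins Itgam, Itgax and Itgal were higher, Itga4 was lower and the others did not pass the test. Of the 17 matrix-binding integrins, 13 were higher, 2 did not pass the test and 2 had too few counts, with a median log2 fold change of 0.96 over the 15 tested. Of the 11 adaptors, 9 were higher, 1 did not pass and 1 had too few counts, with a median of 0.94 over the 10 tested. Among the 8 leukocyte integrins, 3 were higher, 1 was lower and 4 did not pass, with a median of 0.18. The platelet chain Itga2b did not pass the test. Over all 14005 genes tested, the median was 0.02 and 31.1% were higher. With the libraries scaled to the 12 endothelial markers, 6 matrix-binding integrins were higher and 4 lower, no adaptor was higher and 3 were lower, and 1 leukocyte integrin was higher and 5 were lower. On that scale, 8.73% of all genes were higher and 71.2% lower. Itga11 passed the filter only through the PD mice, so that its difference is partly set by the filter.

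**Figure D1:**
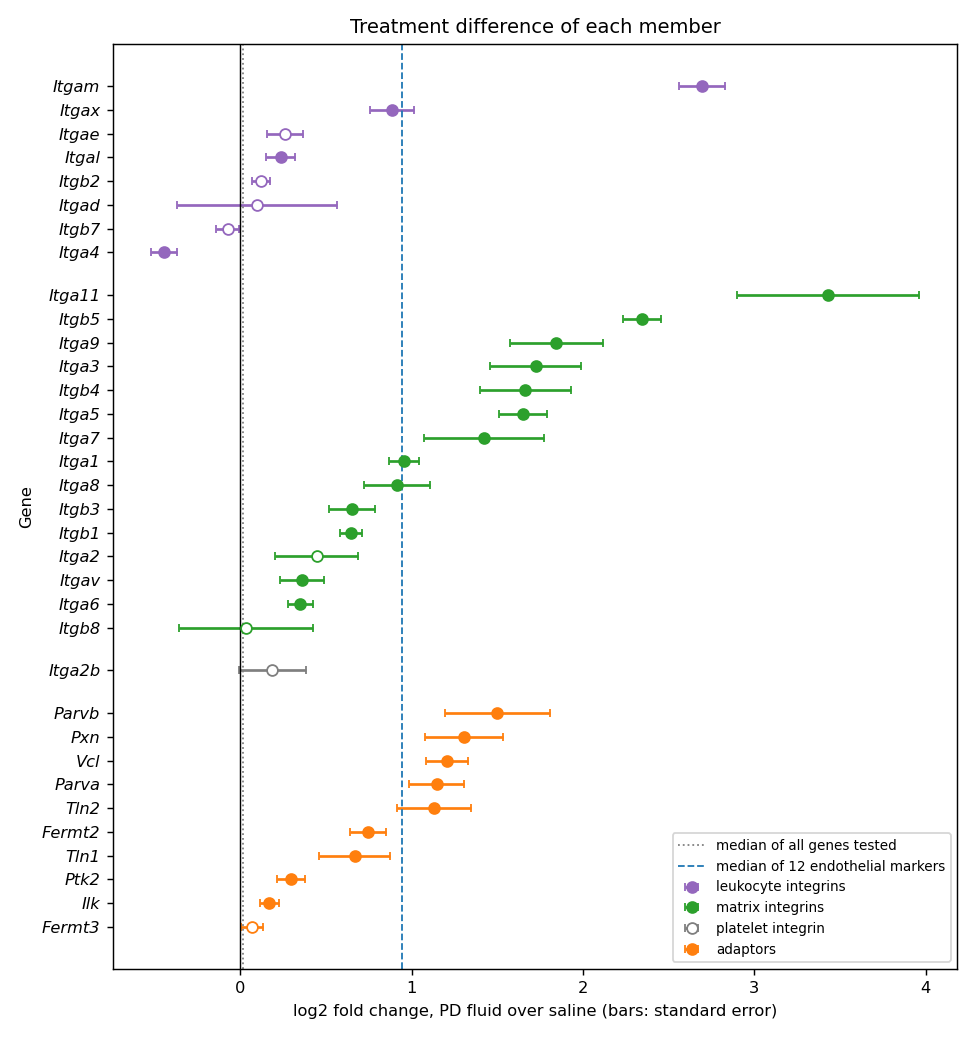
Log2 fold change of PD mice over saline mice (x axis) for the 34 tested genes (y axis), by class, with the SE as bars and open points for genes that did not pass the test. The matrix-binding integrins and adaptors lie mostly between 0.17 and 2.34, around the median of the 12 endothelial markers (0.95, dashed), whereas most leukocyte integrins lie near the median of all genes (0.02, dotted).

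Promoter sequences are shown for Itgam and Itgb5, the members with the largest rise of those above 10 CPM in saline mice, and for Itgb7, an abundant leukocyte chain that did not pass the test. They were chosen after their values were seen. The sequences are from RefSeq on GRCm38.p6, where 25 of the 37 genes were matched, and give the 250 bases before the transcription start, 5′ to 3′ on the strand of the gene. Capitals mark GAGGAA, the core letters of sites for the myeloid and lymphoid factor PU.1, and GGGCGG, the letters of an SP1 box, searched on both strands. These windows lie at chr7:128062390-128062639 on the + strand for Itgam, at chr16:33829415-33829664 on the + strand for Itgb5 and at chr15:102231936-102232185 on the - strand for Itgb7.
Itgam: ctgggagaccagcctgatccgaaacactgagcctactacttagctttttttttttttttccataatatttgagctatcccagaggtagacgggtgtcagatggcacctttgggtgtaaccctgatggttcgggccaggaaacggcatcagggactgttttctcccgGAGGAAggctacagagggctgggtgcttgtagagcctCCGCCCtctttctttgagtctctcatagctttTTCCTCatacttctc
Itgb5: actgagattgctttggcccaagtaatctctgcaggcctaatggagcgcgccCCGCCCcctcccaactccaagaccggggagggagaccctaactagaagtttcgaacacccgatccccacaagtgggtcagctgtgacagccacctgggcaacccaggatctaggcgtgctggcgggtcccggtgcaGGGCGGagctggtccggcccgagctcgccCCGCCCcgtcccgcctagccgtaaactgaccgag
Itgb7: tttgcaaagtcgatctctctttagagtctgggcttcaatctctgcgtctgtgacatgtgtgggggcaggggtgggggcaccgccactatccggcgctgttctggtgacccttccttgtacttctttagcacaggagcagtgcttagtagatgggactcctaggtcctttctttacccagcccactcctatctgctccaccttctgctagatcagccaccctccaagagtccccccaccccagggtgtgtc

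The Itgam window held 2 matches to GAGGAA and 1 to GGGCGG, the Itgb5 window held none of the former and 3 of the latter, and the Itgb7 window held neither. These windows do not stand for their classes: GAGGAA was found in 1 of 4 windows of leukocyte integrins, 6 of 15 of matrix-binding integrins and 1 of 8 of adaptors, and GGGCGG in 2, 5 and 5 of them. Across all 32851 promoter windows of the table, 23.3% held GAGGAA and 32.7% held GGGCGG. The TATA box letters TATAAA were found in none of the 28 windows of the members, against 12.4% of all windows. GC content was 49.6% for Itgam, 56.0% for Itgb7 and 65.2% for Itgb5. In the RefSeq order of genes on chromosome 7, Itgam lies next to Itgax, and Itgax next to Itgad.

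To compare leukocyte and matrix-binding integrins, the beta2 family was examined first. Itgam encodes CD11b, the alpha chain of the complement receptor of myeloid cells. Its levels were 20.3, 14.1 and 21.3 CPM in the saline mice and 129, 120 and 112 CPM in the PD mice. No PD mouse came near the saline range, and the log2 fold change was 2.69 (standard error, SE, 0.13, adjusted p = 3.68e-08, edgeR). Without saline mouse 2, the lowest of its group, the change was 2.53. Itgax encodes CD11c, which marks dendritic cells and some macrophages. It was at 7.11, 6.27 and 6.17 CPM in saline mice and at 12.3, 11.95 and 11.9 CPM in PD mice, so that the groups were well separated (log2 fold change 0.89, SE 0.13, adjusted p = 0.000185, edgeR).

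Itgal encodes CD11a, the alpha chain of LFA-1, which lymphocytes use to bind ICAM1. Its values of 216, 178 and 204 CPM in saline mice against 254, 235 and 215 CPM in PD mice overlapped. The log2 fold change of 0.24 passed the test (SE 0.08, adjusted p = 0.0326, edgeR), but not without saline mouse 2 (0.16, adjusted p = 0.1, edgeR), nor without saline mouse 3 or PD mouse 1 or 2. Itgb2, the beta chain (CD18) shared by all of these receptors, was at 507, 519 and 516 CPM in saline mice and at 562, 547 and 569 CPM in PD mice. Its values did not overlap, yet the log2 fold change of 0.12 missed the threshold (SE 0.05, adjusted p = 0.0768, edgeR). Itgad, the alpha chain of a receptor of tissue macrophages, was counted 17 to 31 times in saline mice and 14 to 41 times in PD mice, and its log2 fold change of 0.10 had a SE of 0.47 (adjusted p = 0.869, edgeR).

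The ratio of Itgam to Itgal thus differed between the groups. On the log2 scale, Itgam lay 3.38, 3.61 and 3.23 below Itgal in the saline mice, and 0.98, 0.96 and 0.93 below it in the PD mice. This was a shift of 2.45 toward Itgam (exact permutation test, two-sided, p = 0.1, which is the lowest value that groups of 3 allow, and 0.167 after adjustment over 5 pairs of genes). On the deposited FPKM values, which are corrected for gene length, Itgam made up 9.03, 7.68 and 9.92% of the 4 alpha chains that pair with beta2 in saline mice, and 34.5, 34.6 and 34.5% in PD mice. The share of Itgal was 86.8 ± 0.71% (SD, n = 3) in saline mice and 60.7 ± 0.75% (SD, n = 3) in PD mice. Itgax, at 3.70 ± 0.26% and 4.09 ± 0.29% (SD, n = 3 each), overlapped between the groups.

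**Figure D2:**
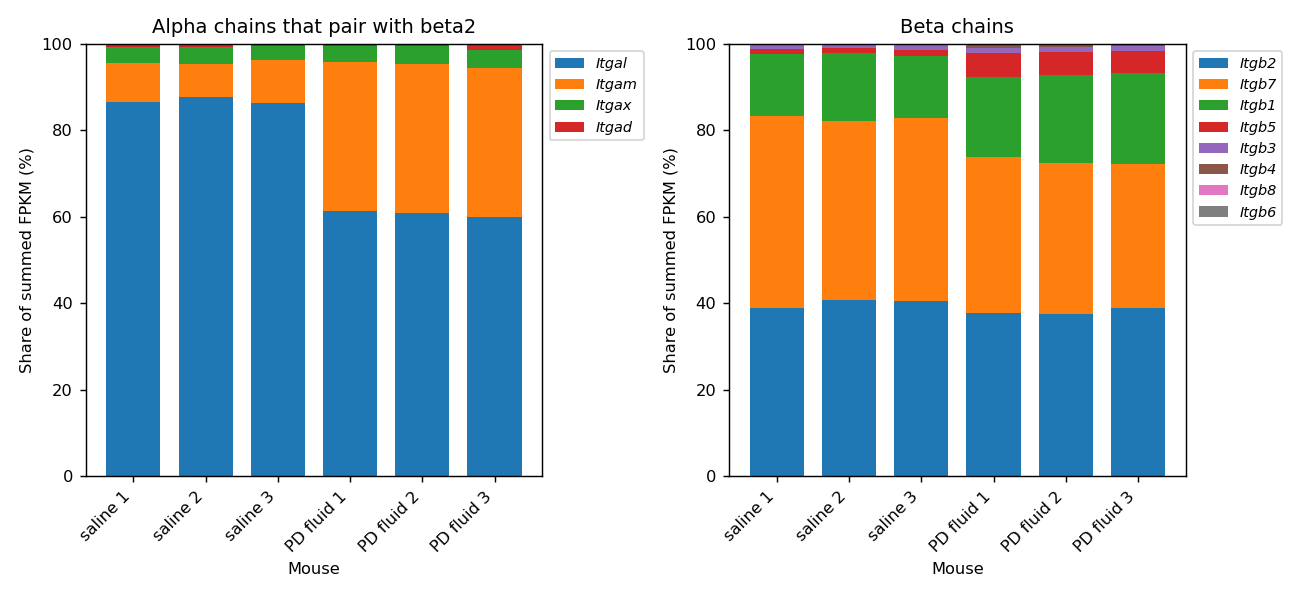
Share of each gene (%, y axis) in the summed FPKM of the 4 alpha chains that pair with beta2 (left) and of the 8 beta chains (right), as stacked bars for each mouse (x axis). Itgam took about 34.5% of the alpha chains in each PD mouse against 7.68 to 9.92% in saline mice, and Itgb1 and Itgb5 took larger shares of the beta chains in PD mice.

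Markers of myeloid cells moved with Itgam. All 12 macrophage markers were higher in PD mice, with a median log2 fold change of 2.04, and none was at 0 in every mouse. Of the 10 neutrophil markers, 9 were tested and 8 were higher, with sums of 19.0 to 21.7 CPM in saline mice against 349 to 395 CPM in PD mice. At such low saline sums, some of these markers may have passed the filter only through the PD mice. The count of 8 may thus be partly set by the filter. Per 1000 CPM of summed macrophage markers, Itgam was at 7.26, 4.95 and 7.88 CPM in saline mice and at 11.5, 10.4 and 9.32 CPM in PD mice. These ratios did not overlap, with a mean 1.55 times as high in PD mice. Per 1000 CPM of summed neutrophil markers, Itgam was instead lower, at 910 ± 228 CPM in saline mice against 330 ± 42.2 CPM in PD mice (SD, n = 3 each). Itgax per 1000 CPM of macrophage markers was lower, at 2.34 ± 0.18 CPM in saline mice against 1.04 ± 0.06 CPM in PD mice (SD, n = 3 each). Of 8 dendritic cell markers, 5 were higher and 1 lower, and their sum went from 637 to 673 CPM in saline mice to 603 to 621 CPM in PD mice. What part these cells had in the Itgam and Itgax differences was not tested.

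Among the other leukocyte integrins, Itga4 was lower and the beta7 pair did not pass the test. Itga4 encodes CD49d, which with beta1 binds VCAM1 and with beta7 binds MADCAM1. It was at 71.5, 71.0 and 70.6 CPM in saline mice and at 56.1, 49.1 and 51.3 CPM in PD mice. All PD mice were below all saline mice, and Itga4 was the single member that was lower (log2 fold change -0.44, SE 0.07, adjusted p = 0.000475, edgeR). Itgb7, the beta chain of gut-homing lymphocytes, was at 503, 460 and 471 CPM in saline mice and at 487, 453 and 425 CPM in PD mice, with overlapping groups (log2 fold change -0.07, SE 0.07, adjusted p = 0.379, edgeR). Relative to Itgb2, Itgb7 shifted by -0.19 on the log2 scale (exact permutation test, p = 0.1, and 0.167 over the 5 pairs). Its partner Itgae (CD103), which holds T cells to E-cadherin, was at 20.4, 21.9 and 21.7 CPM and at 27.8, 26.7 and 22.1 CPM, respectively. The difference of 0.26 on the log2 scale missed the threshold (SE 0.11, adjusted p = 0.0561, edgeR), and reached it without PD mouse 3 (0.36, adjusted p = 0.0138, edgeR).

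B cell markers also differed between the groups. All 10 were lower in PD mice, with a median log2 fold change of -1.08. Of 12 T and NK cell markers, 5 were lower, 2 were higher and 5 did not pass the test, with a median of -0.08. Over all genes tested, 27.8% were lower and 31.1% higher. Itga4 fell by less than the B cell markers: per 1000 CPM of their sum it was at 9.94 ± 0.13 CPM in saline mice against 15.6 ± 0.98 CPM in PD mice (SD, n = 3 each). Itgb7 on this scale was at 66.9 ± 2.41 and 136 ± 8.02 CPM (SD, n = 3 each). Whether the B cell difference contributed to the Itga4 difference was not tested. Exons of Itga4 overlap those of Cerkl on the opposite strand, which was counted 63 to 132 times per mouse and was also lower (log2 fold change -0.81, adjusted p = 0.00325, edgeR). The strandedness of the counting is not given in the sources used here.

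Relative to the CD45 transcript, the PD values lay entirely above the saline values for every leukocyte chain except Itgad. Ptprc itself was lower in PD mice, with a log2 fold change of -0.69 (SE 0.07, adjusted p = 7.12e-06, edgeR), and so were 8 of the 10 pan-leukocyte markers. The median of all genes tested was 0.02, so that a gene at that median is also higher relative to Ptprc. The share of all genes that separate on this scale was not computed. The separation thus cannot be read as particular to these chains. Per 100 CPM of Ptprc, Itgb2 was at 22.1, 20.6 and 22.4 CPM in saline mice and at 40.0, 36.9 and 37.1 CPM in PD mice. Per 1000 CPM of macrophage markers it went the other way, from 185 ± 5.05 CPM in saline mice to 48.2 ± 1.95 CPM in PD mice (SD, n = 3 each). Per 100 CPM of Ptprc, Itgal was at 8.44 ± 1.21 CPM and 16.0 ± 2.04 CPM (SD, n = 3 each). Itgam was at 0.79 ± 0.20 and 8.20 ± 0.91 CPM (SD, n = 3 each), a mean 10.4 times as high in PD mice. The smallest ratio of PD to saline means among the groups that did not overlap was 1.19 for Itga4, at 3.00 ± 0.16 and 3.56 ± 0.38 CPM (SD, n = 3 each). These ratios depend on the choice of Ptprc, since of the other pan-leukocyte markers Arhgdib was lower by -0.77 and Laptm5 higher by 0.31 on the log2 scale.

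**Figure D3:**
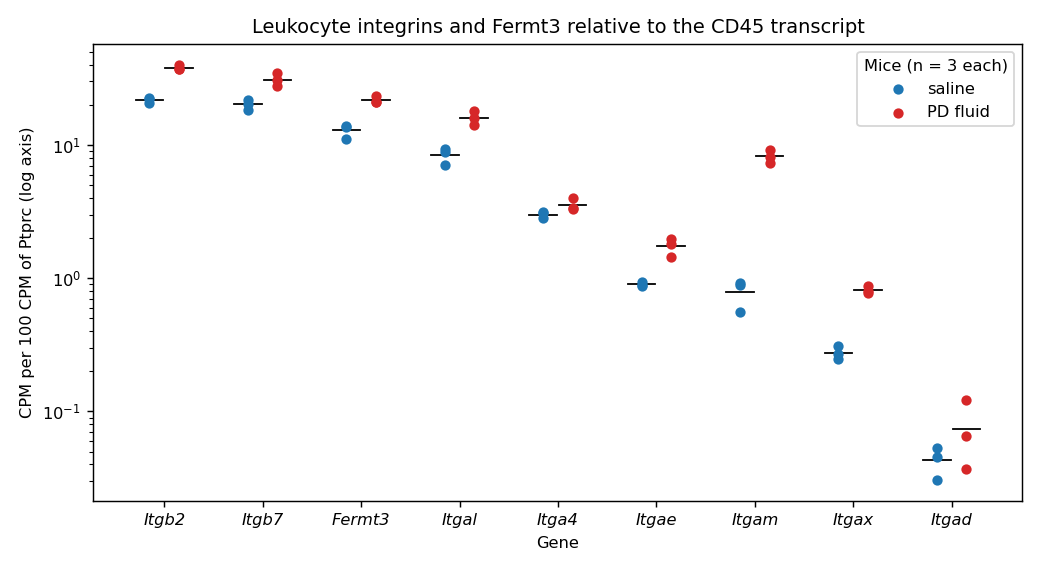
CPM of 8 leukocyte integrins and of Fermt3 per 100 CPM of Ptprc (y axis, log scale) in each mouse, with a line at the mean of each group of 3. The PD mice lie above the saline mice for every gene but Itgad, and the widest gap is that of Itgam (0.79 against 8.20 on average). Ptprc itself was lower in PD mice, which raises each of these ratios.

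Collagen receptors were examined next among the matrix-binding integrins. Itga1, which pairs with beta1 to bind basement membrane collagen, was at 36.5, 38.3 and 31.8 CPM in saline mice and at 72.4, 67.1 and 67.3 CPM in PD mice. The groups did not overlap (log2 fold change 0.96, SE 0.09, adjusted p = 5.37e-06, edgeR). Itga11, a fibrillar collagen receptor best known from fibroblasts, was counted 3, 1 and 10 times in saline mice and 65, 58 and 36 times in PD mice. Its log2 fold change of 3.43 (SE 0.53, adjusted p = 0.000268, edgeR) rested on these few saline counts, and ranged from 3.02 without saline mouse 2 to 4.59 without saline mouse 3. Itga2, the other classic collagen receptor, was counted 42 to 46 times in saline mice and 53 to 68 times in PD mice, and did not pass the test (log2 fold change 0.45, SE 0.24, adjusted p = 0.135, edgeR). Itga10, a receptor of cartilage collagen, was counted 2 to 4 times in saline mice and 7 to 10 times in PD mice and was not tested.

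Fibroblast markers moved with Itga11. All 8 were higher in PD mice, with sums of 80.1 to 86.5 CPM in saline mice against 652 to 761 CPM in PD mice. None was at 0 in every mouse. Per 1000 CPM of these markers, Itga11 overlapped between the groups, at 1.44, 0.53 and 5.17 CPM in saline mice and 3.67, 3.40 and 2.14 CPM in PD mice. The part of fibroblasts in the difference was not tested.

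Laminin receptors were higher in PD mice, by different amounts. Itga6, the alpha chain that ECs use with beta1 on basement membrane laminin, rose least, from 79.2, 74.5 and 85.8 CPM in saline mice to 95.9, 105 and 105 CPM in PD mice (log2 fold change 0.35, SE 0.08, adjusted p = 0.00227, edgeR). Itga3, the laminin receptor of epithelia and many other cells, was at 5.16, 2.21 and 5.38 CPM in saline mice and at 16.2, 14.7 and 11.6 CPM in PD mice. All PD mice were above all saline mice (log2 fold change 1.73, SE 0.27, adjusted p = 0.000261, edgeR), and the change was 1.43 without saline mouse 2. Itgb4, the partner of alpha6 in hemidesmosomes, was at 5.58, 4.47 and 8.03 CPM and at 26.9, 17.2 and 13.3 CPM, respectively (log2 fold change 1.66, SE 0.27, adjusted p = 0.000335, edgeR). Its PD values spread widely but stayed above the saline range, and the change was 1.501 without saline mouse 2 and 1.33 without PD mouse 1. Itga7, the laminin receptor of muscle, was at 3.59, 0.97 and 3.98 CPM in saline mice and at 8.02, 7.72 and 7.39 CPM in PD mice. Its log2 fold change of 1.42 (SE 0.35, adjusted p = 0.00506, edgeR) became 1.03 without saline mouse 2.

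Markers of mesothelial and of mural cells were higher in PD mice too. All 8 mesothelial markers rose, from sums of 15.1 to 19.1 CPM to 161 to 188 CPM, and all 8 pericyte and smooth muscle markers rose, from sums of 279.9 to 298.8 CPM to 453 to 501 CPM. No marker of either list was at 0 in every mouse. The part of these cells in the differences of Itga3, Itgb4 and Itga7 was not tested.

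Receptors for fibronectin and vitronectin held the largest rise among well-expressed matrix-binding integrins. Itgb5, which pairs with alphav to bind vitronectin, was at 16.0, 13.7 and 18.9 CPM in saline mice and at 84.8, 83.5 and 78.7 CPM in PD mice. This 5.07-fold difference left a wide gap between the groups (log2 fold change 2.34, SE 0.11, adjusted p = 2.55e-08, edgeR). Its alpha partner Itgav changed far less, from 15.2, 13.8 and 16.0 CPM to 19.8, 21.8 and 16.2 CPM. The log2 fold change of 0.36 (SE 0.13, adjusted p = 0.0326, edgeR) missed the threshold without saline mouse 2 (0.31, adjusted p = 0.0809, edgeR), without saline mouse 1 or PD mouse 1 or 2, and with the replicate number as a block (0.35, adjusted p = 0.0574, edgeR). Itga5, the fibronectin receptor chain that ECs raise during vessel growth, was at 30.9, 25.3 and 41.2 CPM in saline mice and at 106, 100.4 and 99.2 CPM in PD mice. The rise was 3.14-fold (log2 fold change 1.65, SE 0.14, adjusted p = 3.12e-06, edgeR), and the log2 change was 1.504 without saline mouse 2. Per 1000 CPM of macrophage markers, Itgb5 overlapped between the groups, at 5.85 ± 1.10 and 7.11 ± 0.55 CPM (SD, n = 3 each). Fibroblast and mesothelial markers rose too, and ratios of Itgb5 to them were not computed. The part of any of these cells in the Itgb5 difference was not tested.

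Itgb1, the beta chain shared by most matrix receptors, was at 248, 264 and 240.2 CPM in saline mice and at 370, 396 and 410 CPM in PD mice. This 1.56-fold rise was smaller in size than those of its partners Itga1, Itga3 and Itga5, and larger than those of Itga6 and Itgav (log2 fold change 0.65, SE 0.06, adjusted p = 1.08e-05, edgeR). Itgb3, which forms the vitronectin receptor of activated ECs and the fibrinogen receptor of platelets, was at 23.2, 18.3 and 27.3 CPM in saline mice and at 37.8, 37.6 and 33.0 CPM in PD mice (log2 fold change 0.65, SE 0.13, adjusted p = 0.00171, edgeR), and the change was 0.52 without saline mouse 2. Itga8, found on mural cells and fibroblasts, changed by 0.91 on the log2 scale (SE 0.19, adjusted p = 0.00209, edgeR), from 2.97 to 4.803 CPM in saline mice to 6.84 to 7.43 CPM in PD mice. Itga9, which binds tenascin and is prominent in lymphatic ECs, was at 5.94, 2.72 and 5.13 CPM and at 22.3, 13.7 and 13.9 CPM, respectively. Its log2 fold change was 1.85 (SE 0.27, adjusted p = 0.00018, edgeR), 1.59 without saline mouse 2 and 1.57 without PD mouse 1.

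The remaining chains were low. Itgb8, a receptor that activates latent TGF-beta, was counted 17 to 22 times in saline mice and 14 to 26 times in PD mice (log2 fold change 0.03, SE 0.39, adjusted p = 0.95, edgeR). Itgb6, its epithelial relative, was not counted in saline mice and was counted 1, 5 and 0 times in PD mice, a level near the 3 counts treated here as the floor of detection. The platelet chain Itga2b was at 4.96, 4.24 and 6.00 CPM in saline mice and at 6.95, 5.12 and 5.21 CPM in PD mice, with overlapping groups (log2 fold change 0.19, SE 0.20, adjusted p = 0.434, edgeR). Among 8 platelet markers, 5 were tested and 1, Pf4, was higher (log2 fold change 1.70, adjusted p = 1.5e-08, edgeR).

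**Figure D4:**
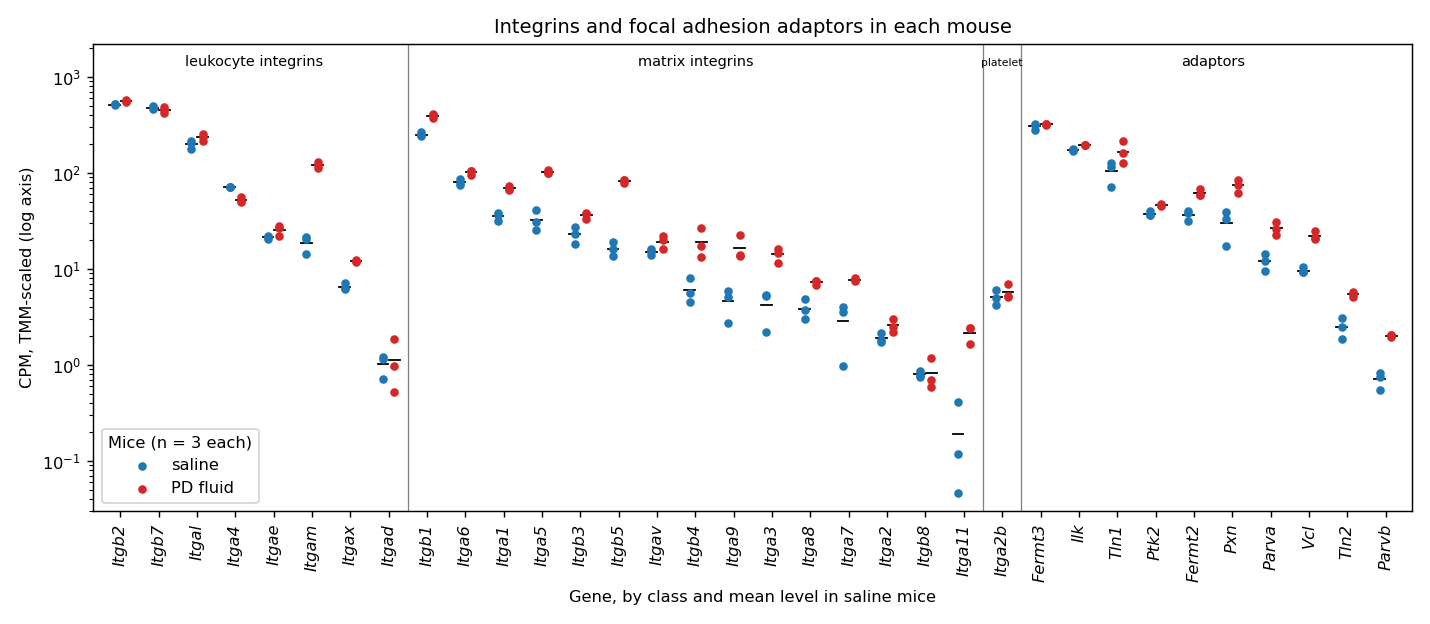
TMM-scaled CPM (y axis, log scale) of the 34 tested genes (x axis, by class and level) in each saline mouse (blue) and PD mouse (red), with a line at the mean of each group of 3. The groups separate for most matrix-binding integrins and adaptors, widely so for Itgb5 (16.2 against 82.4 CPM on average), while among the leukocyte integrins only Itgam shows a gap of that size (18.6 against 120.4 CPM).

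Among the 10 adaptors tested, the leukocyte kindlin was the single one that did not pass. Fermt3, the kindlin of blood cells, was at 316, 280 and 319 CPM in saline mice and at 326, 313 and 320.3 CPM in PD mice, with overlapping groups (log2 fold change 0.07, SE 0.07, adjusted p = 0.391, edgeR). Fermt2, the kindlin of ECs, fibroblasts and muscle, was at 31.4, 40.3 and 38.4 CPM in saline mice and at 58.5, 58.8 and 67.2 CPM in PD mice. It was higher without overlap (log2 fold change 0.75, SE 0.10, adjusted p = 0.000129, edgeR). On the log2 scale, Fermt3 lay above Fermt2 by 3.04 ± 0.26 in saline mice and by 2.37 ± 0.12 in PD mice (SD, n = 3 each). This shift of -0.67 had p = 0.1 in the two-sided exact permutation test, the smallest p possible, and 0.167 after adjustment over 5 pairs. The epithelial kindlin Fermt1 was not counted in saline mice and was counted 2, 1 and 3 times in PD mice, at or under the floor.

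Both talins were higher in PD mice. Tln1, the main talin of ECs and blood cells, was at 116, 71.7 and 127 CPM in saline mice and at 213, 160.1 and 127 CPM in PD mice. The lowest PD value and the highest saline value met, and the log2 fold change of 0.67 (SE 0.21, adjusted p = 0.0172, edgeR) missed the threshold in DESeq2 (0.66, adjusted p = 0.0602) and without PD mouse 1 (0.45, adjusted p = 0.0846, edgeR). Without saline mouse 2, it was 0.46 (adjusted p = 0.0272, edgeR). Tln2, the minor form outside muscle and brain, was at 3.09, 1.84 and 2.48 CPM and at 5.04, 5.54 and 5.75 CPM, respectively (log2 fold change 1.13, SE 0.22, adjusted p = 0.0011, edgeR), and its change was 0.96 without saline mouse 2. The difference between the changes of Tln1 and Tln2, -0.34 on the log2 scale, had p = 0.4 in the exact permutation test (0.5 after adjustment over 5 pairs).

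The ILK complex was higher by amounts that differed between its subunits. Ilk, the pseudokinase at its centre, rose little but evenly, from 176, 169.8 and 175 CPM in saline mice to 193, 197 and 195 CPM in PD mice (log2 fold change 0.17, SE 0.06, adjusted p = 0.0228, edgeR). The call was lost without saline mouse 1 (adjusted p = 0.0553, edgeR) or PD mouse 2 (adjusted p = 0.0765, edgeR). Parva, its main parvin in ECs, was at 14.4, 12.04 and 9.44 CPM in saline mice and at 30.6, 26.2 and 22.7 CPM in PD mice (log2 fold change 1.15, SE 0.16, adjusted p = 0.000138, edgeR). Parvb was counted 12 to 20 times in saline mice and 43 to 56 times in PD mice (log2 fold change 1.501, SE 0.31, adjusted p = 0.0017, edgeR), with a change of 1.36 without saline mouse 2. The changes of the parvins differed by 0.06 on the log2 scale (exact permutation test, p = 0.8, also after adjustment over 5 pairs).

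Adaptors that connect the complex to actin and to signalling rose as well. Vinculin (Vcl), which reinforces talin-actin links under tension, was at 9.18, 9.18 and 10.4 CPM in saline mice and at 21.2, 20.5 and 24.8 CPM in PD mice (log2 fold change 1.21, SE 0.12, adjusted p = 1.15e-05, edgeR). Paxillin (Pxn), the scaffold of early adhesions, was at 33.3, 17.4 and 38.8 CPM and at 85.1, 75.5 and 61.7 CPM, respectively (log2 fold change 1.31, SE 0.23, adjusted p = 0.000597, edgeR). Without saline mouse 2, its change was 1.04. Focal adhesion kinase (Ptk2) rose by less, from 40.4, 36.3 and 36.1 CPM to 44.9, 47.2 and 46.7 CPM (log2 fold change 0.30, SE 0.08, adjusted p = 0.00843, edgeR). The 3 adaptors with the smallest changes, Fermt3, Ilk and Ptk2, include the 2 with the highest FPKM.

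Compared per length by the deposited FPKM, leukocyte chains led in both groups. In saline mice, Itgb7 was highest at 190 ± 10.6 FPKM, followed by Itgb2 at 178 ± 0.98, Fermt3 at 118 ± 8.98, Ilk at 103 ± 3.41, Itgb1 at 65.8 ± 2.79 and Itgal at 38.5 ± 3.96 FPKM (SD, n = 3 each). None of these neighbours overlapped between mice, whereas the next levels, from Itga6 at 18.6 ± 1.501 FPKM down to Itga4, overlapped with their neighbours. In PD mice, Itgb2 led at 197 ± 5.60 FPKM and Itgb7 was second at 181 ± 14.1 FPKM, and these values overlapped. Itgb5 moved from rank 14 to rank 7 and Itgam from rank 16 to rank 8 among the 37 genes, and in PD mice the levels from Itgb5 down to Pxn overlapped with their neighbours. Itga4 moved from rank 13 to rank 19.

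The matrix-binding integrins together took 20.4, 21.1 and 21.7% of the summed FPKM of leukocyte and matrix-binding integrins in saline mice, and 30.2, 31.4 and 31.7% in PD mice. Their sum was 114 ± 3.82 FPKM in saline mice and 210 ± 4.88 FPKM in PD mice (SD, n = 3 each), against 425 ± 14.2 and 465 ± 27.5 FPKM for the leukocyte integrins. Among beta chains, Itgb1 went from 14.8 ± 0.80% to 19.9 ± 1.28% and Itgb5 from 1.27 ± 0.18% to 5.27 ± 0.21% of the total, while Itgb7 went from 42.7 ± 1.48% to 34.9 ± 1.39% (SD, n = 3 each). Of all 18 alpha chains, Itga5 made up 7.65 ± 1.34% in saline mice and 14.7 ± 0.31% in PD mice, and Itga6 19.5 ± 0.72% and 15.2 ± 1.51% (SD, n = 3 each). None of these groups overlapped, but the leukocyte integrin sums nearly met, at 439.7 FPKM in saline mouse 1 and 440.3 FPKM in PD mouse 3.

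Since the endothelial markers also rose, members were compared with them by scaling the libraries to those 12 genes, which moved the median log2 fold change of all genes to -0.92. These 12 markers themselves changed by 0.13 to 1.65 on the log2 scale, so that calls on this scale depend on the choice of markers. The members that stayed higher were Itgam (1.76), Itga11 (2.51), Itgb5 (1.41), Itga9 (0.91), Itga3 (0.80), Itgb4 (0.73) and Itga5 (0.72). Itga1, at 0.02, and Itga8, at -0.02, did not pass the test on this scale. Itga6 (-0.58), Itgav (-0.58), Itgb1 (-0.29) and Itgb3 (-0.28) were lower on this scale, by less than the median of all genes. The adaptors Parvb, Pxn, Vcl, Parva and Tln2, between 0.20 and 0.57, and Fermt2 and Tln1, at -0.19 and -0.27, did not pass. Ptk2 (-0.64), Ilk (-0.77) and Fermt3 (-0.86) were lower.

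**Figure D5:**
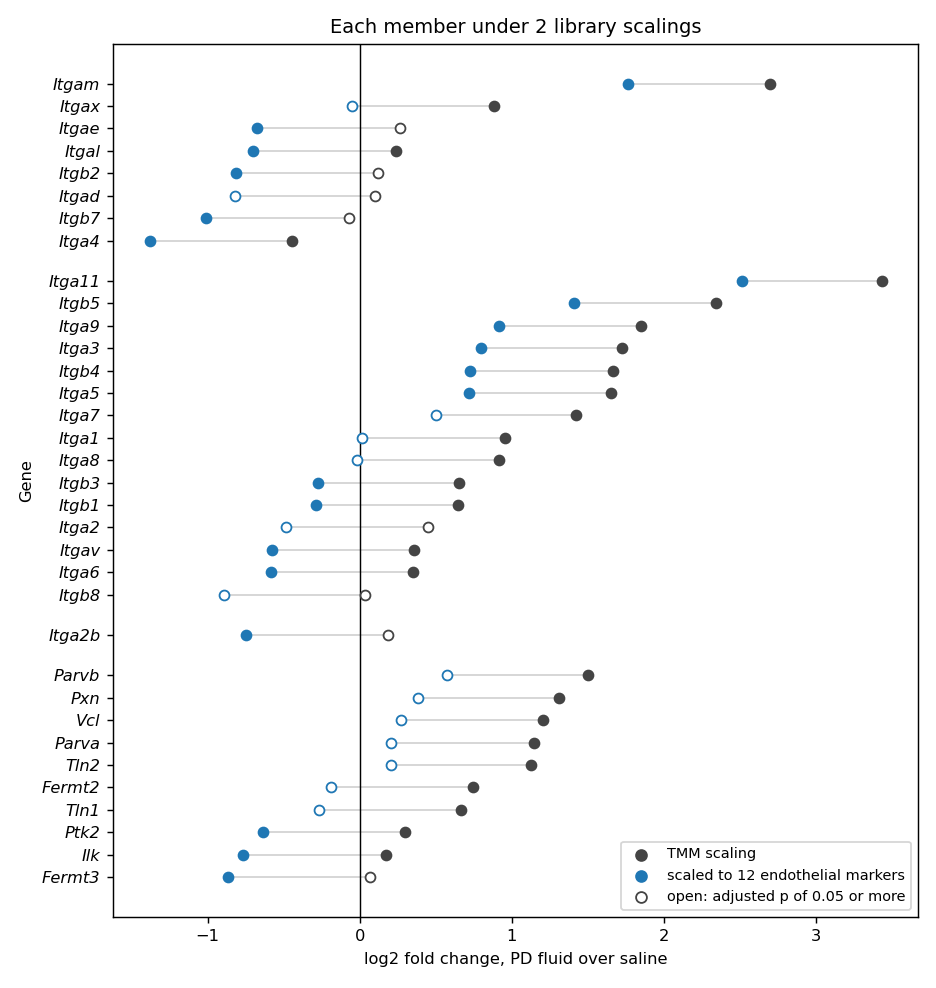
Log2 fold change of PD mice over saline mice (x axis) for each of the 34 tested genes (y axis) with TMM scaling (grey) and with the libraries scaled to 12 endothelial markers (blue), open where the adjusted p was 0.05 or more. Itgam, Itgb5, Itga5, Itga3, Itga9, Itgb4 and Itga11 stay above 0 and pass under both scalings, and all adaptors lose their higher call under the second.

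The other genes of the pathway were counted from lists that hold none of the 37 genes. Of 29 further focal adhesion scaffold genes, 18 were higher and 4 lower, with a median log2 fold change of 0.73, against 31.1% higher and 27.8% lower over all genes. The largest rises were those of Kank2 (2.22), which recruits the cortical machinery to talin, of the tensin Tns2 (1.995) and of the vinculin-binding Sorbs3 (1.85). Those lower were led by Evl (-0.65), Lpxn (-0.43) and Parvg (-0.38), of which leupaxin and gamma-parvin are the blood cell relatives of paxillin and the parvins. In a list of 31 genes of integrin activation and signalling, 9 were higher and 11 lower, with a median of 0.01, near the shares over all genes. Src (2.27, from 0.43 ± 0.17 to 2.05 ± 0.64 CPM, SD, n = 3 each), Tyrobp (1.35) and Bcar1 (1.30) led the former, and Nedd9 (-0.73), Dock2 (-0.61) and Rasgrp2 (-0.49) the latter. Src, counted 6, 12 and 12 times in saline mice, passed the filter only through the PD mice, so that its difference is partly set by the filter. Bcar1 and Nedd9 encode related docking proteins of focal adhesion kinase, with Nedd9 typical of lymphocytes, and Rasgrp2 encodes an activator of Rap1 in blood cells. Those values each had an adjusted p of at most 0.000852 in edgeR.

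Ligands were mostly higher, against 31.1% of all genes. Of 11 ligands of leukocyte integrins, 8 were higher, led by Cdh1 (log2 fold change 1.87), the E-cadherin bound by Itgae, and by Vcam1 (1.13) and Icam1 (1.07), and 1, Icam4 (-1.19, adjusted p = 0.0143, edgeR), was lower. Of 31 matrix ligands, 29 were tested, of which 28 were higher and 1, Lamb3 (-0.81, adjusted p = 0.0123, edgeR), was lower, with a median of 1.26. Collagen I rose most, with 3.85 for Col1a1 and 3.40 for Col1a2, followed by fibronectin (Fn1) at 3.28, from 16.0 ± 3.01 to 156 ± 33.2 CPM (SD, n = 3 each). The fibrinogen chain Fgg was not counted in any mouse, and Lama1 had too few counts. Fibroblast markers, all 8 higher, moved with these ligands, and their part in the ligand differences was not tested.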

How the data were processed

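RNA was sequenced from sorted peritoneal ECs (3 mice per group), grouped by the sample titles. The authors deposited raw read counts per gene and mouse, and FPKM values computed by the authors. The table also holds their group means, log2 ratio, p-value and FDR, which were not used, and 0 per-sample columns had no matching label. The submitters' processing notes name fastp 0.18.0, Bowtie2 2.2.8, HISAT2, StringTie and RSEM without their roles. The genome build, annotation and strandedness are not given in the sources used here. The methods name limma and state no covariate. Counts of all genes passing filterByExpr were scaled by TMM and tested with edgeR 4.0.16 (quasi-likelihood test, no covariate, Benjamini-Hochberg threshold 0.05) in R 4.3.3. Standard errors were derived from the F statistic. DESeq2 1.42.0, limma-voom (limma 3.58.1), no filter, a replicate-number block, endothelial marker scaling, a 2-fold minimum, Itga4 classed with the matrix integrins, and leaving out each mouse were the alternatives. FPKM was used for levels between genes. For the gene pairs, FPKM and a pseudocount of 1 were alternatives. Contrasts of gene pairs used log2(CPM + 0.5) and two-sided exact permutation tests. CPM values are counts scaled by TMM, and 3 counts were taken as the floor. Exons of 10 members overlap another gene of the table in GENCODE M21 (matched by identifier). The fitting script was tested on simulated counts. All 37 members are described. Of the other lists, up to 3 genes in each direction are named, those past the threshold, not overlapping, with at least 10 counts on average and the largest change. Members and lists were chosen with earlier results of these data known. P-values set the difference between the groups against the variation between these mice.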

Additional observations from a re-analysis of the deposited data

How the results depend on the processing

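Of the 34 tested genes, 34 kept their direction and their side of the threshold with no filter on low counts, 33 in DESeq2, 32 in limma-voom and 33 with the replicate number as a block. Same-numbered saline and PD mice had correlations of deviations of 0.0868, 0.03002 and -0.154. With 3 mice per group, these cannot show whether the numbers pair the mice. With that replicate block, 12 matrix integrins and 9 adaptors were higher, 3 leukocyte integrins were higher and 1 lower, and 4242 of all genes were higher and 3667 lower, against 4359 and 3887 without it. In limma-voom, Itgad (-0.075) and Itgb8 (-0.035) changed sign, as did Itgad without saline mouse 3 (-0.11) or PD mouse 3 (-0.47) and Itgb8 without saline mouse 3 (-0.02) or PD mouse 3 (-0.30), and they reached 0.46 (Itgad, without PD mouse 1) and 0.23 (Itgb8, without PD mouse 2). None of these passed the test.

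Scaling to the endothelial markers gave 1222 genes higher and 9966 lower. By construction it lowers every value, and the class medians became -0.76 for leukocyte integrins, 0.018 for matrix integrins and 0.0057 for adaptors. Leukocyte integrins were then higher in 1 and lower in 5 cases, matrix integrins in 6 and 4, and adaptors in 0 and 3. Signs reversed for Itgal (-0.70), Itgax (-0.049), Itgad (-0.82), Itgb2 (-0.82), Itgae (-0.68), Itga2 (-0.49), Itga6 (-0.58), Itga8 (-0.018), Itgav (-0.58), Itgb1 (-0.29), Itgb3 (-0.28), Itgb8 (-0.89), Itga2b (-0.75), Tln1 (-0.27), Fermt2 (-0.19), Fermt3 (-0.86), Ilk (-0.77) and Ptk2 (-0.64). When calls also needed a 2-fold difference, 1 leukocyte integrin, 7 matrix integrins and 5 adaptors were higher and 0 of any class lower, and 2158 of all genes were higher and 252 lower. With Itga4 counted as a matrix integrin, 0 leukocyte and 1 matrix integrin were lower.

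Leaving out single mice, 2 to 4 leukocyte integrins, 12 to 13 matrix integrins and 8 to 9 adaptors were higher. The class medians ran from 0.17 to 0.25, 0.95 to 1.11 and 0.89 to 0.96, respectively. The pair contrasts ran from 2.35 to 2.54 for Itgam and Itgal, -0.24 to -0.13 for Itgb7 and Itgb2, -0.59 to -0.13 for Tln1 and Tln2, -0.80 to -0.54 for Fermt3 and Fermt2, and -0.17 to 0.17 for Parva and Parvb. With a pseudocount of 1 or on FPKM, the Tln1 and Tln2 contrast was -0.23 or -0.049, and that of Parva and Parvb 0.27 or 0.56. Itgal lost its call without saline mouse 2 or 3 or PD mouse 1 or 2, Itgav without saline mouse 1 or 2 or PD mouse 1 or 2, and Ilk without saline mouse 1 or PD mouse 2. For 3 ratios and shares (Itgam and Itgb2 per Ptprc, and the matrix share), leaving out single mice was added after seeing the data, and each moved by less than its spread. Itga10, Itgb6 and Fermt1, at 10 counts or fewer per mouse, were removed by the filter on low counts and not tested.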
